A study of Mus musculus with 30 samples.

Results

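The genes described here encode neuronal receptors, ion channels and synapse proteins, together with sodium pump subunits, calmodulin-dependent kinases and glutamine synthetase. They were chosen by the letters of their gene symbols (glutamate, GABA, acetylcholine and serotonin receptors, Kcn, Cacn and Scn channels, Atp1 pumps, Camk kinases, synaptotagmins, synapsins, Dlg, Homer, neurexin and neuroligin families). The rule itself uses no measured value, but earlier results of these data were known when it was set. The rule found 38 genes on 45 probes, of 7151 genes that carry 1 symbol. Averaging the probes of each gene, and keeping unnamed probes apart, left 14384 rows, and all counts over all genes are over these rows. The table falls into a first and a second block of equal size, and 16 of the 45 probes lie in the first block and 29 in the second. Most of the best-known synaptic genes (Gabrb1, Gad1, Camk2a, Syp, Dlg4 and others) were not analysed here.

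The samples were cerebral cortex and hippocampus of 12-week-old mice, each hybridised as 33P-labelled cDNA to a nylon cDNA array. There were 30 arrays in 10 groups of 3. In each region the COX-1 line gave a wild-type group (COX-1+/+) and a null group (COX-1-/-). The COX-2 line gave COX-2-/- null mice, COX-2+/- heterozygotes and its own wild type, COX-2+/+. All mice, wild types included, shared a C57BL/6 and 129/Ola mixed background, and none was given a drug before the overdose of pentobarbital used to kill it. The deletions were germline, so they were present in every cell type and throughout development. Each COX line was kept as its own colony, and each null group was compared with the wild type of its own line. The labels do not say whether the cortex and the hippocampus came from the same animals or whether an array held 1 mouse, so p-values measure the spread between these arrays. No probe carried the symbol Ptgs1 or Ptgs2, so the deleted genes were not checked here.

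Cyclooxygenase-1 and cyclooxygenase-2 convert arachidonic acid to prostaglandin H2, from which prostaglandin E2 and the other prostanoids are made. In forebrain, COX-2 is present in excitatory neurons and is induced by synaptic activity, whereas COX-1 is best known from microglia. Prostaglandin E2 acts on G protein-coupled receptors that raise or lower cyclic AMP or release calcium. Through these second messengers it can alter the gating of ion channels, transmitter release and synaptic plasticity. Whether the transcripts of the receptors, channels and synaptic proteins differ without 1 COX isoform is the question that the genotype comparisons address.

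The value of a gene was the Z score of its spot: the natural log of the intensity, less the mean over the array, divided by the SD over the array. A value of 0 is the mean of the array and 1 is 1 SD above it, so differences between groups are in units of that SD and cannot be read as folds. Each block of the table had been standardised on its own to mean 0 and SD 1. In the first block, 5 of the 6 COX-1 cortex arrays held identical values. These values were therefore left out of every COX-1 cortex comparison, which leaves 26 of the 38 genes there, and 12 genes without a COX-1 cortex value. In the second block, the arrays of a group correlated at r = 0.984 to 0.993 across probes. In whole-tissue samples, fewer cells of a type and less RNA per cell cannot be told apart.

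A difference was called by either of 2 rules, which both considered only genes with a mean Z above 0 in the arrays compared. The first was limma with a Benjamini-Hochberg adjusted p under 0.05 over all such rows. The second, called the rule of the study, follows its methods in all but the divisor: a Z test P under 0.05 and a z ratio beyond 1.5, the z ratio being the mean of 1 group less that of the other, in units of the SD of such differences over all rows. The methods state as divisor the SD of all genes on an array, which is 1. With that divisor, 0 of the genes met the rule in either COX-2-/- comparison. An exact permutation test of 3 against 3 arrays cannot go below p = 0.1. Where a gene with a mean Z below 0 is described, its limma p was adjusted over all rows with no filter, which is said at each place. The study set the filter on mean Z to remove genes below background. It states that such genes may show high fold changes and so add to false detections.

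The signal of the group as a whole was that of the average spot. Over the 8 groups with values of their own in both blocks, 19 of the 38 genes (50%) had a mean Z above 0, as did 47.6% of all rows, and the median was -0.00909 against -0.0519 for all rows. The median SD between the 8 group means was 0.0735 for these genes and 0.0676 for all rows, while the median SD within groups was 0.0629 for these genes and 0.0711 for all rows. Thus for the typical gene the SD between group means was near the SD between single arrays of a group. A mean of 3 arrays varies less than a single array, so this does not show that groups differed no more than replicates. The signal of a spot also depends on its probe, so values of different genes are given to show which spots were bright and not as an order of transcript amounts.

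Among the ligand-gated receptors and their relatives, Grina, a membrane protein of the TMBIM family named after the NMDA receptor, had a mean Z of 1.997. Its group means lay between 1.91 in COX-2+/- hippocampus and 2.10 in COX-2-/- cortex. The kainate receptor subunit Grik1 had a mean Z of -0.263, and its group means had the largest SD of the 38 genes, 0.222. The nicotinic receptor subunit Chrna5 had a mean Z of 0.483 and the GABA-A receptor subunit Gabra3 one of -0.986.

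The potassium channel family was the largest, with 14 members, of which 9 had a mean Z above 0. Bright spots belonged to Kcnq1, the alpha subunit of a slow delayed rectifier (1.91), Kcnk1, a leak channel of the tandem-pore class (1.55), and Kcng1, a modifying subunit that is silent on its own (1.10). Kcnk6, of the same class, stood at 0.775, and the beta subunit Kcnab3 at 0.559. Kcnj12, an inward rectifier, stood at 0.302, Kcnn2, the small-conductance calcium-activated channel SK2, at 0.250, Kcnh3, an ether-a-go-go-like channel of forebrain, at 0.206, and Kcnd2, the A-type channel Kv4.2, at 0.00564. Below 0 were Kcnmb1, a beta subunit of the large-conductance calcium-activated channel (-0.0238), the A-type channel Kcnd3 (-0.218), the modifying subunit Kcns3 (-0.270), the beta subunit Kcne3 (-1.01) and the ether-a-go-go channel Kcnh1 (-1.41). Kcnk1 had an SD of 0.0283 between its 8 group means, which only 3.42% of all rows matched or undercut.

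All 3 calcium and sodium channel genes lay below 0: the calcium channel pore Cacna1d at -0.718, its auxiliary subunit Cacna2d1 at -0.556 and the sodium channel beta subunit Scn2b at -0.174. The beta subunits of the sodium pump, which restores the ion gradients that channels run down, spread from Atp1b1 (1.64) through Atp1b3 (0.209) to Atp1b2 (-0.672). Of the calmodulin-dependent kinases, Camk1d (0.294) lay above 0, and Camk1 (-0.127), Camk2d (-0.153) and Camk2g (-0.615) lay below it. The presynaptic vesicle proteins were Syt11 (0.364) and Syn3 (-0.107). Among postsynaptic scaffolds and adhesion proteins, Homer2 (0.741) and Dlg1 (0.0613) lay above 0, and Dlg2 (-0.185), Dlg3 (-0.837) and the inhibitory-synapse protein Nlgn2 (-1.12) lay below it. Glutamine synthetase (Glul), the astrocytic enzyme that turns glutamate into glutamine, stood at 0.208. The letters of the rule also caught Htra2, a mitochondrial protease (0.0847), and Kcnq1ot1, a noncoding RNA of the Kcnq1 locus (-0.928), which belong to no synaptic class.

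**Figure D1:**
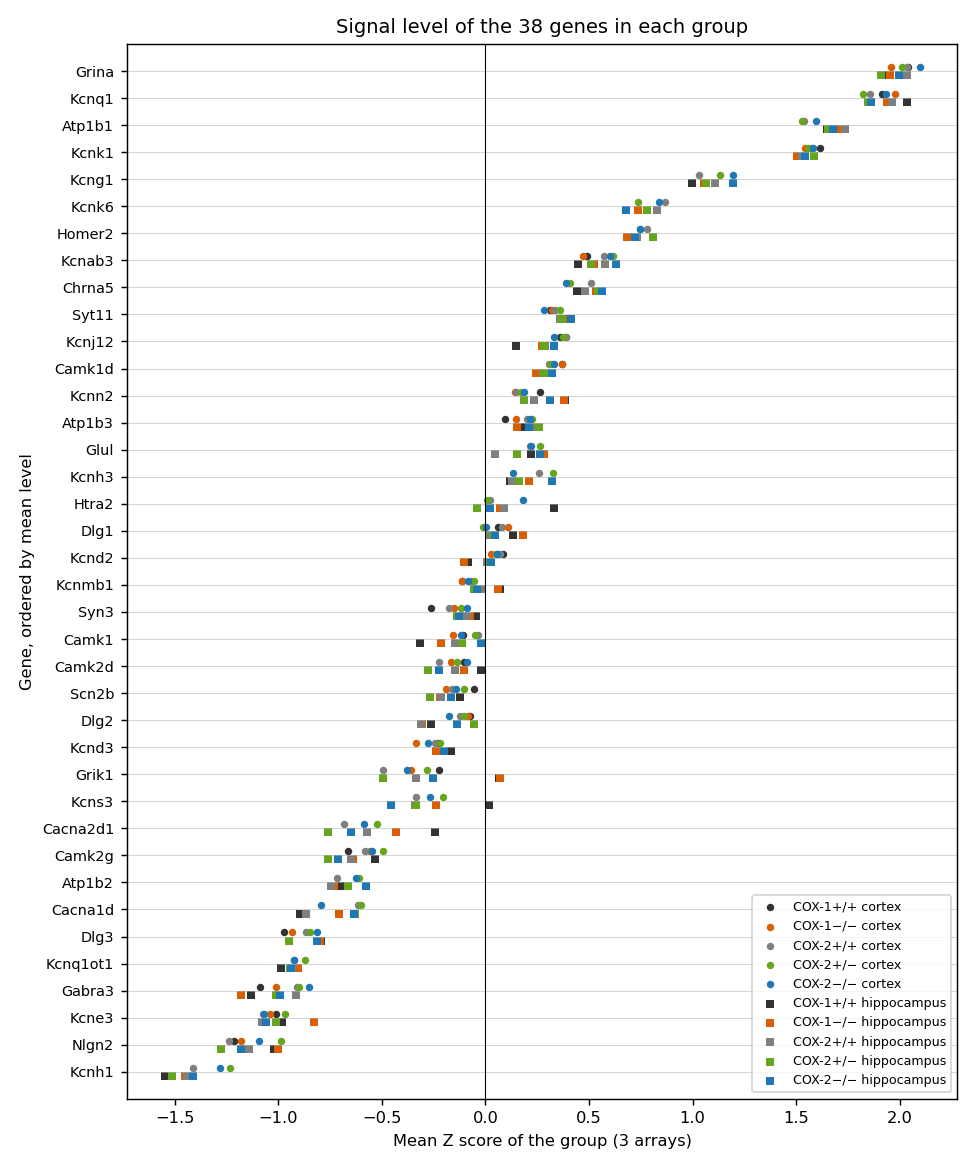
Mean Z score of each of the 38 genes (vertical axis, ordered by the mean over groups for display) in each group of 3 arrays (horizontal axis, Z score; circles are cortex, squares are hippocampus, colours are genotypes). COX-1 cortex means that rest on copied values or on part of the probes of a gene are left out. The groups of most genes lie close together, whereas those of Grik1 spread from -0.493 to 0.0698.

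Since prostaglandin receptors act in part through cyclic AMP, promoter windows from RefSeq (GRCm38.p6, 250 bases before to 50 after a transcription start) were searched on both strands for the letters of the cyclic AMP response element. Of the 38 genes, 26 were matched to 40 windows. The full element TGACGTCA was in 0 of the 40 windows and in 1.79% of the 32851 windows of all genes. The shorter TGACG, which is contained in the full element, was in 8 windows (20%), against 20.8% of all windows. Such letters are a description of the window and not a binding site. The windows of Glul, which had the largest z ratio of the genes tested in COX-2-/- hippocampus, and of Nlgn2 and Cacna2d1, which differed between groups and hold TGACG, are shown 5′ to 3′, with TGACG or its complement in capitals. They lie at chr1:153899679-153899978 on the plus strand, chr11:69837735-69838034 on the minus strand and chr5:15934441-15934740 on the plus strand.
Glul: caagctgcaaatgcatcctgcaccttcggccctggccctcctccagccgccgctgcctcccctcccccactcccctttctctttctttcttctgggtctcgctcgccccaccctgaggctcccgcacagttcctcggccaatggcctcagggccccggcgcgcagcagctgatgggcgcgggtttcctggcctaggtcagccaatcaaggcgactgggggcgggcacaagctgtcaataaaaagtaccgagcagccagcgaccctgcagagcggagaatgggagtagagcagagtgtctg
Nlgn2: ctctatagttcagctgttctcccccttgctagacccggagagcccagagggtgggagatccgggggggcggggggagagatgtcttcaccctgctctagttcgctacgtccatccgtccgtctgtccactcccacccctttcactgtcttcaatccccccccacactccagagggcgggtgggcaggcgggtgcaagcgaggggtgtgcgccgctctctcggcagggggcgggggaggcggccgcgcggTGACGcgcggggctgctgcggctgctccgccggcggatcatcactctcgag
Cacna2d1: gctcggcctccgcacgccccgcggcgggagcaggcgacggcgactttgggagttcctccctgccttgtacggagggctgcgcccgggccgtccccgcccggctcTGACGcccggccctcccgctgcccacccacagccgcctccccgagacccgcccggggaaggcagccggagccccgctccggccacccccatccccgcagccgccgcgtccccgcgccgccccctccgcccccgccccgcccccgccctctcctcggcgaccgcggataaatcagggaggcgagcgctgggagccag
In these windows TGACG stood once in Nlgn2 and once in Cacna2d1, and not in Glul. Nlgn2 and Cacna2d1 were picked for holding it. Among other genes called in a contrast, some had a window with it, such as Camk1, Chrna5 and Dlg3. Others had none, such as Cacna1d, Dlg2, Kcnj12 and Atp1b1.

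In the hippocampus of COX-2-/- mice, 2 of the 19 genes tested met the rule of the study, Glul and Kcnh3, both with a higher signal than in the wild type. Over all rows, 3.75% met that rule in this comparison, 1.93% in the upward direction. Glul had Z scores of 0.242, 0.149 and 0.402 in COX-2-/- hippocampus, and 0.126, 0.0540 and -0.0375 in COX-2+/+ hippocampus. The lowest null array was above the highest wild-type array, by a margin smaller than the spread within either group. The difference was 0.217 (SE 0.0607) between 0.264 ± 0.128 and 0.0475 ± 0.0820 (SD, n = 3), with a z ratio of +2.11 and a limma adjusted p of 0.2999. The wild-type hippocampus of the COX-2 line was itself the lowest of the 8 groups for Glul: the COX-1+/+ hippocampus, with 0.154, 0.221 and 0.285, overlapped the COX-2-/- arrays. When the wild types of both lines served as control, 1 gene in place of 2 met the rule.

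Kcnh3 had Z scores of 0.216, 0.285 and 0.461 in COX-2-/- hippocampus and 0.0972, 0.103 and 0.184 in COX-2+/+ hippocampus, again without overlap. The difference was 0.193 (SE 0.0713), the z ratio +1.87 and the limma adjusted p 0.332. In cortex the direction was the opposite. The COX-2-/- arrays, at 0.116, 0.175 and 0.106, all lay below the COX-2+/+ arrays, at 0.203, 0.220 and 0.351, with a difference of -0.126 (SE 0.0560) that met neither rule (limma adjusted p = 0.467). The difference between the 2 regions in the effect of COX-2-/-, a contrast added after the data were seen, was 0.318 (SE 0.0876, limma adjusted p = 0.0756), and 0 of 19 genes passed it, where 1.02% of all rows did. At an unadjusted p under 0.05 there were 5 of 19 (background 21.2%). For COX-2+/- the same contrast gave 0 of 19 (background 4.1%), and 1 of 19 at an unadjusted p under 0.05 (background 20.9%). The COX-2+/- arrays lay with the wild type in hippocampus (0.160 ± 0.0652) and above the null arrays in cortex (0.325 ± 0.0871, SD, n = 3). Without the third COX-2-/- hippocampus array 0 genes met the rule. Glul also failed it without the first COX-2-/- array and Kcnh3 without the second, where the z ratios were 1.85 and 1.88 and the Z test P was not under 0.05. With a correction for row order 0 genes met it.

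By limma, 0 of the 19 genes differed between COX-2-/- and wild-type hippocampus, where 0% of all rows did. At an unadjusted p under 0.05 there were 3 of 19, against 12.2% of all rows tested. Of the 38 genes, 11 had groups without overlap, against 17.5% of all rows. Kcnq1 was among these. Its COX-2-/- arrays (1.85, 1.87 and 1.87) lay below the wild type (1.93, 1.95 and 2.0003), with a difference of -0.101 (SE 0.0384, limma adjusted p = 0.337). When the wild types of both lines served as control, limma called it as lower (-0.138, SE 0.0332, adjusted p = 0.0461), the only one of the 19 genes tested. The other 19 lay below the filter and were not tested there. The COX-1+/+ hippocampus, which this control adds, was itself the highest of the 8 groups for Kcnq1 (2.04). The share of all rows that limma called with this control is not given here.

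**Figure D2:**
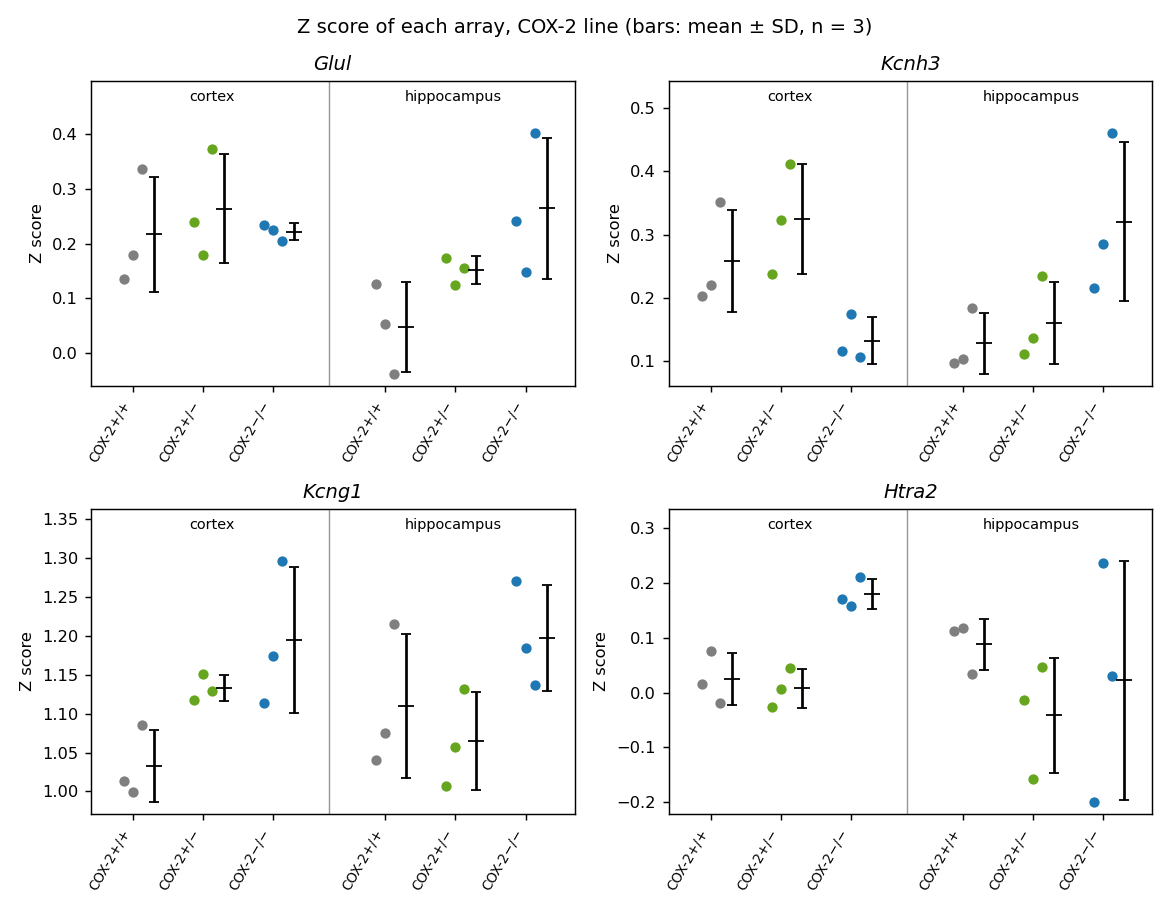
Z score of each array (vertical axis) for the 4 genes that met the rule of the study in a COX-2-/- comparison, in cortex and in hippocampus of the COX-2 line. Points are arrays, black bars are mean ± SD (n = 3). The COX-2-/- arrays of Kcnh3 lie below the wild type in cortex and above it in hippocampus, whereas those of Kcng1 and Htra2 are set apart from the wild type in cortex alone.

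In the cortex of COX-2-/- mice, Kcng1 and Htra2 met the rule of the study, both with a higher signal, where 4% of all rows tested did and 2.38% in that direction. Kcng1 had Z scores of 1.11, 1.17 and 1.30 in COX-2-/- cortex and 1.01, 0.999 and 1.09 in COX-2+/+ cortex. The groups did not overlap, and the COX-2+/- arrays (1.12, 1.15 and 1.13) lay above the wild type as well. The difference of COX-2-/- was 0.162 (SE 0.0507), with a z ratio of +1.62 and a limma adjusted p of 0.356, and that of COX-2+/- was 0.0996 (SE 0.0507, adjusted p = 0.611), with the same 3 control arrays. Htra2, the protease with no synaptic role by class, had 0.171, 0.157 and 0.210 against 0.0151, 0.0753 and -0.0185, a difference of 0.155 (SE 0.0408, z ratio +1.55, limma adjusted p = 0.354). Its values in hippocampus spread from -0.198 to 0.237 in COX-2-/- mice alone and from 0.0900 to 0.511 in COX-1+/+ mice.

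By limma, 0 of the 19 genes tested differed in COX-2-/- cortex, where 0% of all rows did, and 4 of 19 had an unadjusted p under 0.05, against 10.7% of all rows. These were Htra2, Kcng1, Chrna5 and Kcnh3. Chrna5, an accessory subunit of nicotinic acetylcholine receptors, had 0.380, 0.450 and 0.332 against 0.529, 0.479 and 0.526, a difference of -0.124 (SE 0.0466, limma adjusted p = 0.415). Groups without overlap were found for 7 of 38 genes, against 16.8% of all rows. Leaving out 1 array left 0 or 1 genes that met the rule, each of the 2 genes failing it in 4 of 6 cases, with 0 when the first wild-type or the third null array was absent, and 0 met it after a correction for row order.

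In COX-2+/- mice, 0 genes met the rule of the study in either region, where 3.17% of all rows did in cortex and 6.28% in hippocampus. By limma, 0 of 19 differed in cortex, where 0% of all rows did, and 0 of 19 in hippocampus, where 2.36% did. At an unadjusted p under 0.05 there were 1 of 19 in cortex (background 8.86%) and 2 of 19 in hippocampus (background 18.7%). Groups without overlap were found for 7 of 38 genes in cortex (background 15.9%) and for 13 of 38 in hippocampus (background 30.4%). With no filter on low signal, 1 gene was called in hippocampus, where 1.52% of all rows were. This was Dlg2, which encodes PSD-93, a scaffold of the postsynaptic density. It had -0.0474, -0.0439 and -0.0728 in COX-2+/- hippocampus and -0.441, -0.275 and -0.219 in COX-2+/+ hippocampus, a difference of 0.257 (SE 0.0537, limma adjusted p = 0.0354 over all rows). The COX-2-/- arrays, at -0.205, -0.0709 and -0.133, had a mean between the other groups, overlapped the COX-2+/- arrays, and differed from the wild type by 0.175 (SE 0.0537, adjusted p = 0.262 over all rows). Without 1 array the adjusted p for COX-2+/- ran from 0.0487 to 0.112, and it stayed under 0.05 for 1 of the 6 arrays left out.

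In COX-1-/- mice, 0 genes met the rule of the study in cortex (of 12 tested, background 2.63%) or in hippocampus (of 20 tested, background 4.81%). By limma, 0 of 12 differed in cortex, where 0% of all rows did, and 0 of 20 in hippocampus, where 0.378% did. At an unadjusted p under 0.05 there were 1 of 12 in cortex (background 15.2%) and 3 of 20 in hippocampus (background 16.5%). The smallest adjusted p in hippocampus belonged to Kcnj12, at 0.350, 0.231 and 0.245 in COX-1-/- and 0.101, 0.158 and 0.185 in COX-1+/+, a difference of 0.127 (SE 0.0383, limma adjusted p = 0.122). In cortex it belonged to Kcnn2, with 0.153, 0.141 and 0.134 in COX-1-/- and 0.208, 0.306 and 0.269 in COX-1+/+, a difference of -0.118 (SE 0.0470, limma adjusted p = 0.255). In both genes the groups did not overlap, as in 4 of 26 genes in cortex (background 17.9%) and 7 of 38 in hippocampus (background 20.5%).

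Kcnq1 showed the same arrangement of arrays in hippocampus for each mutant genotype. The COX-1-/- arrays (1.94, 1.99 and 1.89) lay below the COX-1+/+ arrays (2.07, 2.03 and 2.01), with a difference of -0.0957 (SE 0.0384, limma adjusted p = 0.230). The COX-2+/- arrays (1.80, 1.88 and 1.85) lay below the COX-2+/+ arrays, with a difference of -0.117 (SE 0.0384, adjusted p = 0.116). The COX-2-/- difference, given above, used the same 3 controls as the COX-2+/- difference, and no one of the 3 passed either rule. Groups without overlap made up 20.5% of all rows in COX-1-/-, 17.5% in COX-2-/- and 30.4% in COX-2+/- hippocampus. The share of all rows without overlap in all 3 is not given here.

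The difference between the null effects of the 2 lines was tested directly. By limma, 0 of 19 genes differed in hippocampus and 0 of 12 in cortex, where 0% of all rows tested did in each region. At an unadjusted p under 0.05 there were 0 of 19 in hippocampus (background 7.56%) and 2 of 12 in cortex (background 10.8%). The 2 in cortex were Grina and Kcnn2. Between COX-2-/- and COX-2+/- mice, limma called 0 of 18 genes in either region, where 0% of all rows were called in cortex and 0.857% in hippocampus, and 3 (background 11.1%) and 2 (background 17%) genes had an unadjusted p under 0.05. For the 38 genes the median difference from the wild type was 0.0175 in COX-2-/- hippocampus and -0.00638 in COX-1-/- hippocampus. For all rows it was 0.00259 and 0.00138.

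Between the regions, the COX-2 line had 2 genes of 19 called by limma and the COX-1 line 3 of 11, where 12.9% and 30.7% of all rows were called. In the COX-2 line both were higher in hippocampus, where 6.43% of all rows were, and the 18 arrays of 3 genotypes entered. Atp1b1, the first beta subunit of the sodium pump, had cortex arrays between 1.46 and 1.63 and hippocampus arrays between 1.63 and 1.76. The difference was 0.134 (SE 0.0214, limma adjusted p = 0.00128), and both of its probes gave it (0.144 and 0.124). It was 0.197 in COX-2+/+, 0.124 in COX-2+/- and 0.0817 in COX-2-/- mice, and in each genotype every hippocampus array was above every cortex array. No COX-1 cortex value was available for Atp1b1, whose probes lie in the copied block. Its COX-1 hippocampus arrays lay between 1.58 and 1.78.

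Chrna5 was called as well, with a difference of 0.0919 (SE 0.0276, limma adjusted p = 0.0387). This came from the mutant mice: the difference was 0.173 in COX-2-/- and 0.134 in COX-2+/-, but -0.0318 in COX-2+/+, in which the hippocampus arrays (0.538, 0.481 and 0.420) overlapped the cortex arrays (0.529, 0.479 and 0.526). With no filter on low signal, 5 genes were called, where 10.7% of all rows were. Camk2g, a subunit of the calcium/calmodulin-dependent kinase II (-0.167, SE 0.0377), Kcnh1 (-0.144, SE 0.0308) and Scn2b (-0.0812, SE 0.0245) were lower in hippocampus, with adjusted p of 0.0113, 0.00827 and 0.0451 over all rows. Leaving out 1 array lost the call of Chrna5 in 12 of 18 cases and that of Scn2b in 14 of 18. Those of Camk2g and Kcnh1 were kept in all 18.

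In the COX-1 line, with 12 arrays of 2 genotypes, Kcnn2 was higher in hippocampus and Kcnj12 and Camk1d were lower, where 13.3% of all rows were called higher and 17.3% lower. Kcnn2, whose SK2 current follows bursts of spikes, had 0.417, 0.322 and 0.415 in COX-1+/+ hippocampus against 0.208, 0.306 and 0.269 in COX-1+/+ cortex. In COX-1-/- mice it had 0.427, 0.303 and 0.404 against 0.153, 0.141 and 0.134. The groups did not overlap within either genotype, and the difference was 0.179 (SE 0.0325, limma adjusted p = 0.00174). In the COX-2 line it was 0.0757 (SE 0.0320, adjusted p = 0.134).

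Kcnj12 was lower in hippocampus by 0.162 in the COX-1 line (difference -0.162, SE 0.0341, limma adjusted p = 0.00383) and by 0.0626 in the COX-2 line (difference -0.0626, SE 0.0264, adjusted p = 0.133). Camk1d, a calmodulin-dependent kinase, differed by -0.114 (SE 0.0342, adjusted p = 0.0235) in the COX-1 line. Only 1 of its 2 probes gave that difference (-0.236), the other being at 0.00697. Leaving out 1 array kept the Kcnn2 and Kcnj12 calls in all 12 cases and lost that of Camk1d in 5.

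With no filter, 11 of the 26 genes were called in the COX-1 line, where 34.2% of all rows were. The 8 that this added were Grik1 (0.361, SE 0.0411), Nlgn2 (0.188, SE 0.0486), Kcnmb1 (0.179, SE 0.0432), Dlg3 (0.156, SE 0.0419) and the synapsin Syn3 (0.147, SE 0.0335), all higher in hippocampus, and Camk1 (-0.133, SE 0.0360), Kcnd2 (-0.149, SE 0.0325) and Dlg2 (-0.207, SE 0.0408), all lower. Their adjusted p over all rows ran from 0.000157 for Grik1 to 0.0134 for Camk1.

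**Figure D3:**
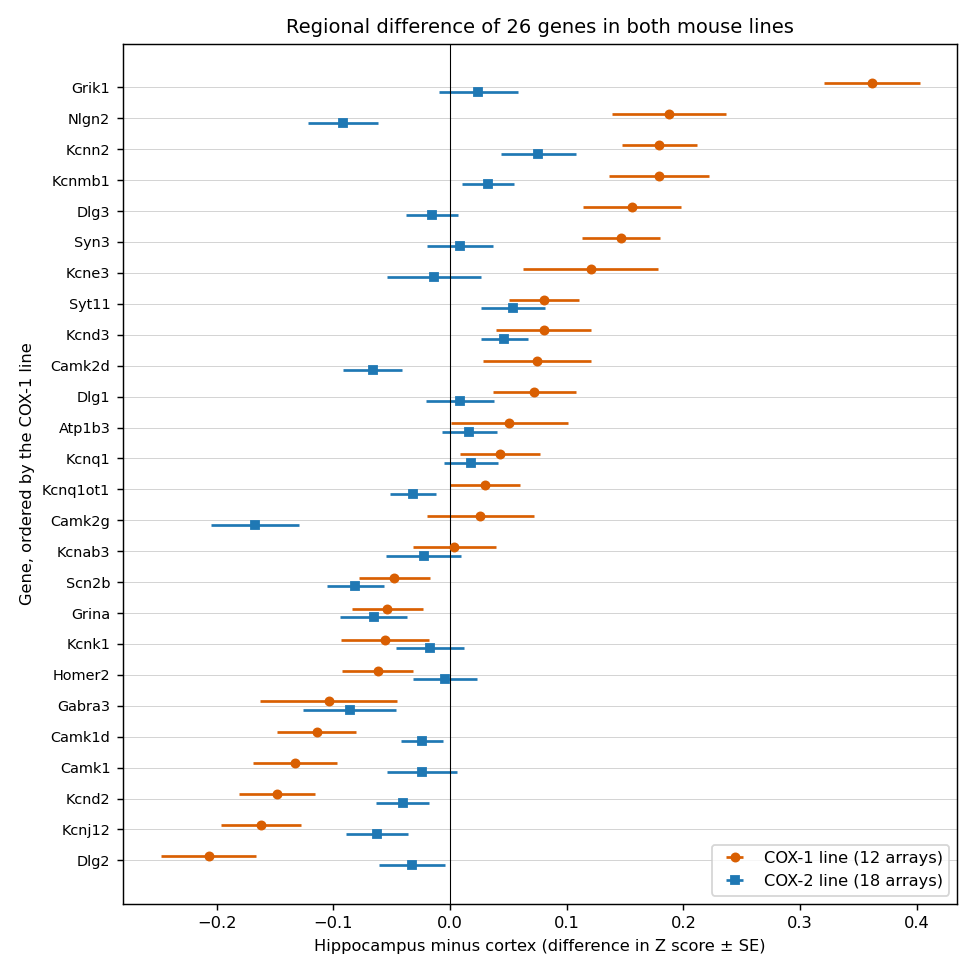
Hippocampus minus cortex, as a difference in Z score ± SE (horizontal axis), for the 26 genes with values in both lines (vertical axis), in the COX-1 line (circles, 12 arrays) and the COX-2 line (squares, 18 arrays). Homer2 and Kcnq1ot1 rest on all their probes in the COX-2 line and on part of them in the COX-1 line. Grik1 and Nlgn2 lie furthest apart between the lines, at 0.361 against 0.0242 and at 0.188 against -0.0919.

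The regional difference itself differed between the lines for several of these genes. The contrast of COX-2 minus COX-1 line, chosen after the data were seen and fitted over all 30 arrays, called Camk1d (0.0904, SE 0.0328, limma adjusted p = 0.0477) and Kcnd2 (0.108, SE 0.0356, adjusted p = 0.0294) of 12 genes tested, where 23.3% of all rows were called. With no filter, 10 of 26 genes were called, where 27.8% of all rows were. The largest belonged to Grik1 (-0.337, SE 0.0534, adjusted p = 6.01e-05) and Nlgn2 (-0.279, SE 0.0552, adjusted p = 0.000548). The labels give no batch for the arrays, so the part of a batch in these differences was not tested.

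Grik1, a subunit of kainate-type glutamate receptors, had the widest spread over groups. Its mean Z over the 8 groups was below 0, at a level that 39.8% of all rows matched or undercut. In hippocampus the COX-1 line had -0.0646, 0.132 and 0.130 in wild type and 0.0462, 0.0646 and 0.0985 in null mice. The 9 hippocampus arrays of the COX-2 line lay between -0.594 and -0.211, with no overlap. In cortex the COX-1+/+ arrays were -0.237, -0.225 and -0.214 and the COX-2+/+ arrays -0.573, -0.472 and -0.435. The COX-2+/+ minus COX-1+/+ difference was -0.401 (SE 0.0597) in hippocampus, with a limma adjusted p of 0.00245 over all rows, and -0.268 (SE 0.0566) in cortex, with one of 0.0420, where 1.45% of all rows were called. The cortex value rose above 0.05 when any 1 of the 6 wild-type arrays was left out. Within the COX-2 line, the COX-2+/- arrays were above the wild type in cortex (-0.247, -0.309 and -0.286) and below it in hippocampus (-0.594, -0.403 and -0.480, against -0.398, -0.304 and -0.305). The difference between these effects was -0.369 (SE 0.0827, limma adjusted p = 0.0250 over all rows, where 3.26% of all rows were called). With the filter, 0 of 19 genes were called in that contrast, where 4.1% of all rows were, and 1 had an unadjusted p under 0.05.

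Nlgn2, the neuroligin of inhibitory synapses, had a similar exchange in COX-2+/- mice. Its mean Z over the 8 groups lay far below the filter, at a level that only 9.25% of all rows matched or undercut. Its cortex arrays were -0.963, -1.02 and -0.990 in COX-2+/- and -1.15, -1.25 and -1.30 in COX-2+/+, and its hippocampus arrays were -1.33, -1.24 and -1.26 against -1.11, -1.15 and -1.16. The effect was 0.246 in cortex and -0.136 in hippocampus, and the difference between them was -0.382 (SE 0.0740, limma adjusted p = 0.0143 over all rows). The COX-2-/- arrays were at -1.16, -1.13 and -1.0007 in cortex and overlapped the wild type there. Leaving out any 1 of the 12 arrays kept the Nlgn2 call, with adjusted p from 0.0139 to 0.0375, whereas that of Grik1 was lost in 6 of 12 cases.

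Cacna1d, the pore of the Cav1.3 L-type calcium channel, changed places in COX-2-/- mice. Its mean Z over the 8 groups lay below the filter as well, at a level that 19.9% of all rows matched or undercut. In cortex the null arrays (-0.756, -0.834 and -0.790) lay below the wild type (-0.709, -0.558 and -0.586), and in hippocampus they (-0.712, -0.648 and -0.543) lay above it (-0.982, -0.839 and -0.781). The effects were -0.176 and 0.233, and their difference was 0.409 (SE 0.0777, limma adjusted p = 0.0291 over all rows, where 1.52% of all rows were called). It was 0.218 with an adjusted p of 0.112 after a correction for row order, and the call was lost in 6 of 12 cases when 1 array was left out. The rise in hippocampus was not particular to COX-2-/- mice. With the same controls, the COX-2+/- hippocampus arrays (-0.654 to -0.598) lay above the wild type by 0.240. In COX-1-/- hippocampus the difference was 0.185, and its arrays (-0.857 to -0.529) overlapped those of COX-1+/+ (-1.05 to -0.797).

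**Figure D4:**
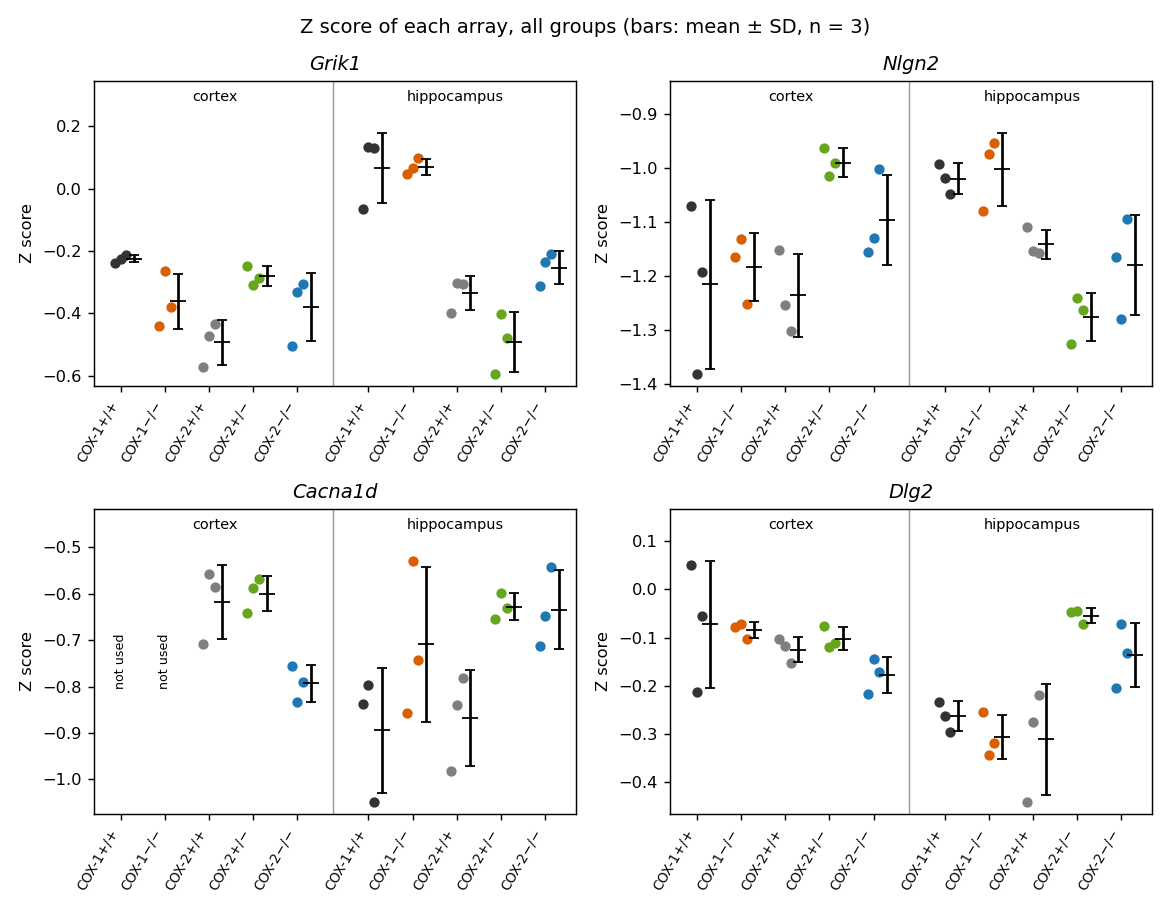
Z score of each array (vertical axis) for Grik1, Nlgn2, Cacna1d and Dlg2 in all groups of cortex and hippocampus. Points are arrays, black bars are mean ± SD (n = 3), and COX-1 cortex is not used for Cacna1d, whose probe lies in the copied block. Grik1 in hippocampus is higher in both COX-1 groups than in all COX-2 groups, and the COX-2+/- arrays of Nlgn2 lie above the wild type in cortex and below it in hippocampus.

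The wild types of the 2 lines differed in 1 of 19 genes tested in hippocampus by limma, where 5.7% of all rows did, and in 0 of 12 in cortex, where 1.7% did and 1 of 12 had an unadjusted p under 0.05 (background 17.2%). In hippocampus this was Kcnj12, with 0.289, 0.280 and 0.299 in COX-2+/+ and 0.101, 0.158 and 0.185 in COX-1+/+, a difference of 0.141 (SE 0.0383, adjusted p = 0.0455). The call was lost when any 1 of the 6 arrays was left out. With no filter, Grik1, Cacna2d1 and Kcns3 were called too, all lower in COX-2+/+, where 12.9% of all rows were called. Cacna2d1, the alpha2delta subunit to which gabapentin binds, had -0.587, -0.547 and -0.577 against -0.265, -0.163 and -0.299, a difference of -0.328 (SE 0.0539, adjusted p = 0.00351 over all rows). Kcns3 had -0.354, -0.288 and -0.383 against -0.116, 0.146 and 0.0190, a difference of -0.358 (SE 0.0945, adjusted p = 0.0256 over all rows), and 5 of the 6 arrays left out in turn removed the call.

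Where a gene had more than 1 probe, the probes did not always move together. The 3 probes of Homer2, a scaffold that ties metabotropic glutamate receptors to calcium stores, differed from the wild type in COX-2-/- cortex by 0.0448, -0.0319 and -0.123. Those of Camk1d differed by -0.0401 and 0.0939. The 4 probes of Kcnq1ot1 ran from -0.125 to 0.0671. Those of Atp1b1 differed by 0.0476 and 0.0732.

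Partners of these genes in transmission (transporters, release machinery and signalling subunits) were measured for 19 of the 50 listed. By limma, 0 differed in any of the 6 genotype comparisons, where 0% to 2.36% of all rows were called. Slc6a13, the GABA transporter GAT2 of meninges and liver, met the rule of the study as higher in COX-2-/- and in COX-2+/- cortex, with z ratios of +1.70 and +2.03 and shared controls. Of all rows, 4% and 3.17% met that rule in these comparisons, in either direction. Between regions, Ppp3ca, the catalytic subunit of calcineurin, was higher in hippocampus in both lines (0.110 in the COX-2 line and 0.217 in the COX-1 line, limma adjusted p 0.00741 and 0.000758). Nsf, which disassembles the fusion complex of vesicles, was higher by 0.244 in the COX-2 line. Limma called 12.9% of all rows between regions in the COX-2 line and 30.7% in the COX-1 line. How many of the 19 partners were called between regions is not given here, so these genes do not describe the partners as a set.

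Few markers of cell types carried a probe. Neuronal markers were measured for 3 of 9, astrocytic for 3 of 7, microglial for 4 of 9, choroid plexus for 1 of 5 and oligodendrocyte for 0 of 7. Markers of the hippocampus were measured for 2 of 8 and of the cortex for 1 of 9. The choroid plexus marker Ttr was at 0.170 to 1.59 (median 0.223) in the 9 COX-2 cortex arrays and at 0.246 to 2.36 (median 1.66) in the 15 hippocampus arrays. It was high in 1 COX-2+/- cortex array and low in the third hippocampus array of 4 of the 5 groups, all but COX-1+/+. The third COX-2-/- hippocampus array (Ttr 0.247) is also the one without which neither Glul nor Kcnh3 met the rule. The part of choroid plexus in those results was not tested. In the COX-1 line the neuronal markers Nefl (0.203) and Uchl1 (0.260) were higher in hippocampus, beside the regional differences given above. Limma called 13.3% of all rows tested as higher in this contrast. Values of the other measured neuronal marker and of the astrocytic markers in this contrast are not given here, so these 2 do not describe neurons as a set. The 4 microglial markers did not move one way: Fcer1g (-0.574), C1qb (-0.111) and C1qc (-0.0961) were lower and C1qa (0.247, called with no filter) was higher. In the COX-2 line, the mean of the 3 measured neuronal markers in COX-2+/+ mice was 0.370 to 0.426 in hippocampus and 0.209 to 0.316 in cortex. Hippocampus and cortex overlapped in COX-2+/- mice (0.290 to 0.357 and 0.253 to 0.295) and in COX-2-/- mice (0.242 to 0.390 and 0.322 to 0.369). The mean of the 2 hippocampal markers overlapped between the regions in each COX-2 genotype. In COX-2+/+ mice it was -0.340 to -0.108 in cortex and -0.263 to -0.0870 in hippocampus. The 1 cortical marker was higher in hippocampus in COX-2+/- mice (-0.512 to -0.388, against -0.611 to -0.524 in cortex). It overlapped between the regions in the other COX-2 genotypes. The part of neurons or microglia in the regional differences given above was not tested.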

How the data were processed

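RNA of cortex and hippocampus was labelled with 33P, hybridised to nylon cDNA arrays and scanned by the authors. The deposited values are Z scores that the authors made from the natural log of each array's intensities; versions of the image software and of the normalizing macro are not given in the sources used here. Probes of a gene were averaged, and probes with several symbols were kept apart. Differences were tested with limma 3.58.1 (R 4.3.3) on group means, with Benjamini-Hochberg adjustment over rows with a mean Z above 0, and with the rule of the study (z ratio beyond 1.5, Z test P under 0.05). Groups came from the labels. The members and lists were chosen with earlier results of these data known. Named were genes called by either rule, the strongest regional calls, the brightest and most variable spots, genes whose probes differ and those caught by letters alone. SDs between group means used the 8 groups with values in both blocks. Genes called without the filter, Kcnq1, Scn2b and the genes named for an unadjusted p or a smallest adjusted p were chosen after their values were seen. Contrasts between lines or genotypes in the effect of region, and of COX-2-/- with COX-2+/-, were added after seeing the data. Both rules were also run on simulated Z scores for the COX-2-/- hippocampus comparison alone, with independent noise and no array or row-order effects. The result is not given here. Calls with no filter and contrasts between regions or lines were not simulated.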

Additional observations from a re-analysis of the deposited data

Results flagged for a closer look

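The regional difference (hippocampus minus cortex) of 10 genes differed between the COX-2 and the COX-1 line, as a contrast in limma over all 30 arrays with no filter, where 27.8% of all rows were called. With the filter, 2 of 12 genes (Camk1d and Kcnd2) passed, where 23.3% of all rows did. It was 0.0904 for Camk1d, -0.141 for Camk2d, -0.193 for Camk2g, 0.175 for Dlg2, -0.172 for Dlg3, -0.337 for Grik1, 0.108 for Kcnd2, -0.146 for Kcnmb1, -0.279 for Nlgn2 and -0.138 for Syn3. Without 1 array, Camk1d lost the call in 20 of 30 cases, Camk2d in 10 and Kcnd2 in 3.

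The effect of a COX-2 genotype differed between the regions by limma with no filter in 3 cases: COX-2-/- for Cacna1d (0.409), where 1.52% of all rows were called, and COX-2+/- for Grik1 (-0.369) and Nlgn2 (-0.382), where 3.26% were. With the filter, 0 of 19 genes were called in either contrast, where 1.02% and 4.1% of all rows were, and 5 and 1 had an unadjusted p under 0.05, against 21.2% and 20.9% of all rows. In these 3 the arrays also moved in opposite directions without overlap, and all 3 genes had a mean Z below 0, under the filter. The same arrangement was seen for COX-2-/- in Kcnh3, with a difference of 0.318 between the regions (adjusted p = 0.0756), and in Kcnq1, with -0.180 (adjusted p = 0.103), which limma did not call. In hippocampus, Scn2b was higher in COX-2-/- (0.0482) and lower in COX-1-/- (-0.0942) than in the wild type of each line, without overlap. The difference of 0.142 was not called by limma. The share of all rows with such opposite shifts is not given here. In 1 comparison alone, groups without overlap made up 16.8% of all rows in COX-2-/- cortex and 17.5% in COX-2-/- hippocampus. These shares were 15.9% in COX-2+/- cortex, 30.4% in COX-2+/- hippocampus and 20.5% in COX-1-/- hippocampus.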

How the results depend on the processing

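By the rule of the study, the 2 genes of COX-2-/- cortex became 0 after correction for row order, with both wild types as control, with a z ratio beyond 2, with an undivided difference and with the SD taken within each block, and 1 with a mean Z above 0.5. Leaving out 1 array left 0 to 1. With both wild types neither gene could be tested in cortex, since both lie in the copied block. The 2 of COX-2-/- hippocampus became 0 after correction for row order, with a mean Z above 0.5 and with an undivided difference, 1 with both wild types or a z ratio beyond 2, and 5 with no filter. Leaving out 1 array left 0 to 2. With no filter, 3 genes met it in COX-2+/- cortex, 3 in COX-2+/- hippocampus and 2 in COX-1-/- hippocampus, where the limma p in place of the Z test gave 1 and leaving out 1 array 0 to 1. The shares of all rows that met the rule with no filter are not given here. The counts with no filter therefore cannot be read as a result about these genes.

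By limma, COX-2-/- hippocampus gave 1 gene with both wild types as control, and COX-2+/- hippocampus 1 with no filter. Between regions, the 2 of the COX-2 line became 1 with quantile normalization or a mean Z above 0.5, 5 with no filter, 0 on probes of the second block alone, 1 in COX-2+/+, 0 in COX-2-/- and 1 in COX-2+/- mice, and 1 to 2 without 1 array. Chrna5 reversed to -0.0318 in COX-2+/+ mice. The 3 of the COX-1 line became 11 with no filter, 0 with a mean Z above 0.5, 1 in COX-1+/+ and 1 in COX-1-/- mice, and 2 to 4 without 1 array. The 1 gene between wild-type hippocampi became 4 with no filter and 0 with quantile normalization, a mean Z above 0.5, each probe on its own, the compared groups alone or 1 array left out. Wild-type cortex gave 1 with no filter. Atp1b1 and Chrna5 have no probe in the second block, and a mean Z above 0.5 leaves out Glul, Kcnh3, Htra2, Kcnn2, Kcnj12 and Camk1d. The cause of the other changes was not tested.

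Deviations of arrays with the same replicate number correlated at -0.0451 to 0.169. Of the 3 pairs of hippocampus and cortex arrays, 2 were above 0.1 in COX-1-/- mice and 2 in COX-2-/- mice. Such correlations cannot tell whether the regions came from the same mice. A replicate block took the wild-type hippocampus count from 1 to 0 (Kcnj12) and changed no other count of calls by over 1.5 times. With 3 arrays a group, small differences can go uncalled.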
